A study of Mus musculus with 75 samples.

Results

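Mouse primordial germ cell-like cells (PGCLCs) after 3 days of expansion culture were compared with the same kind of cells on the day they entered culture. The members were chosen by their labels alone: both libraries named c3_PGCLC_CT (culture day 3) and both named d4_PGCLC (culture day 0), 4 of the 75 libraries of the series. The series as a whole measured messenger RNA by 3′-end sequencing in embryonic germ cells and in PGCLCs grown with or without factors for the female fate. All 4 libraries came from embryonic stem cells of the 129S1:C57BL/6 strain mix that carried the reporters Prdm1-mVenusTg/0 and Dppa3-ECFPTg/0. Day 3 cells had grown on mitomycin C-treated m220 feeder cells in medium with forskolin and rolipram, which both raise cyclic AMP, and were sorted as SC(+) cells, for the Dppa3 reporter. Day 0 cells came straight from floating aggregates that had received BMP4, LIF, SCF and EGF, and were sorted as BV(+) cells, for the Prdm1 reporter. Culture time, medium, feeder cells and sorting reporter changed together between the groups and cannot be told apart. The labels do not spell out CT, and their growth protocol text is cut off, so the medium before day 3 may be incompletely described. They also do not say whether the 2 libraries of a group were separate cultures. The p-values rest on the spread between libraries of a group, pooled over 22 libraries of the line in 11 groups. That spread may be technical. Besides the 4 compared libraries, the 22 included later CT cultures and later cultures labelled RA or RB. A gene could therefore enter the test through its level in those later libraries alone.

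Primordial germ cells are the founders of sperm and eggs. In the mouse embryo BMP signals from outside the epiblast specify them, after which they switch off the somatic mesoderm program, keep a pluripotency network and erase much of their DNA methylation. Germline genes whose promoters are held silent by methylation and by a Polycomb complex come on as the cells approach and enter the gonad, among them genes of the piRNA pathway, which guards the genome against transposons.

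Values are in RPM, the authors' reads per gene scaled to library size, and depth estimated from the size of 1 read was 2.71 to 3.41 M reads per library. The 3-read limit below which a level was not taken as measured was 0.880 to 1.105 RPM, which covers counting error only. Spike-in transcripts stood at 21055 to 36113 RPM. Across the 11873 genes tested, log2 levels correlated at 0.978 between the day 3 libraries and 0.979 between the day 0 libraries, and at 0.949 to 0.958 between libraries of different days, as a description over genes of libraries from 1 line. The 10 germ cell markers summed to 3097 and 3081 RPM in the day 3 libraries and to 2902 and 2953 RPM in the day 0 libraries, and none was at 0 in both libraries of a group. Both groups thus carried the germ cell transcripts that their label leads a reader to look for. The sums do not show the markers singly. Dppa3, on whose reporter day 3 cells were sorted, had a log2 fold change (day 3 minus day 0) of 0.97. Prdm14 and Dnd1 had 0.36 and 0.20. Prdm1, Tfap2c, Nanos3, Kit, Pou5f1, Sox2 and Nanog lay between -0.64 (Tfap2c) and -0.17 (Nanog).

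Day 3 libraries held more of several germline and meiotic transcripts than day 0 libraries, and less of several transcripts of the epiblast, of early mesoderm and of BMP signalling. Most germ cell specification genes were not called, and no gene of the DNA replication and mitosis lists was. A gene counted as called when its limma p, adjusted by Benjamini-Hochberg over all tested genes, was below 0.05 and its log2 fold change was 1 or more in either direction. Of the 11873 genes tested, 649 were called (5.47%): 360 were higher at day 3 (3.03%) and 289 lower (2.43%). Of the called genes, 148 changed by at least 2 on the log2 scale, 82 of them higher at day 3 and 66 lower. The median log2 fold change of all genes tested was -0.004. In all 649 called genes both day 3 libraries lay on the same side of both day 0 libraries, against 23.5% of tested genes with both day 3 libraries above and 24.6% with both below. At day 0, 29 of the genes called higher were listed at 0 in both libraries. At day 3, 8 of the genes called lower were listed at 0 in both. For such genes the log2 fold change depends on the 1 RPM added before the logarithm, so levels are given without it.

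**Figure D1:**
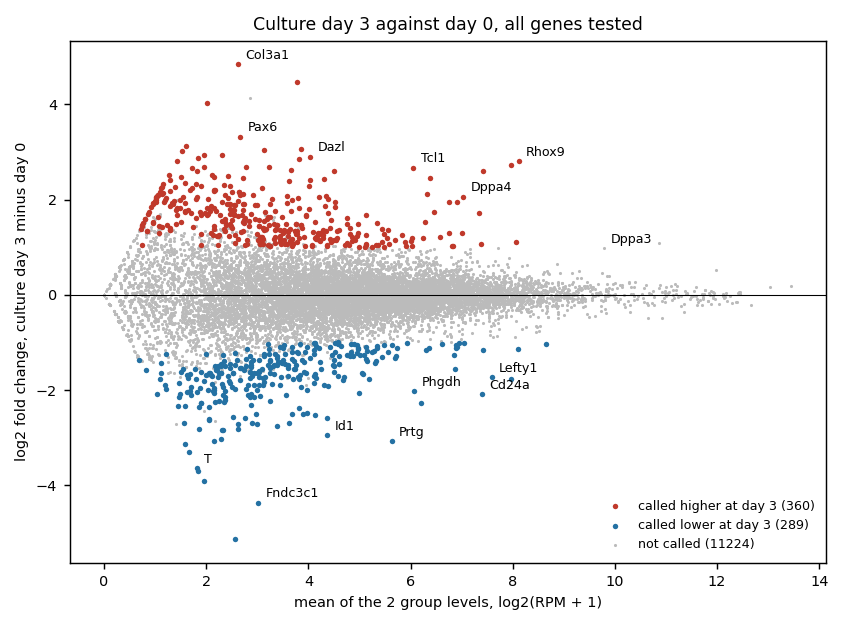
Log2 fold change of each tested gene, culture day 3 minus day 0 (vertical axis), against the mean of the 2 group levels in log2(RPM + 1) (horizontal axis); each point is 1 gene. Points in red are the 360 genes called higher at day 3, points in blue the 289 called lower and points in grey the genes not called; most of the called genes lie at low or middle levels, and Dppa3 lies just under the size limit.

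The calls rest on a spread shared by all 22 libraries of the line. Fitted on the 4 libraries alone, 14 genes were called, 5 higher at day 3 and 9 lower, and no exact permutation test of 2 against 2 libraries can go below 0.333, two-sided. Without day 0 replicate 2, 358 genes were called. With 5 in place of 1 added to RPM, 338 were called.

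The largest rises among genes with at least 20 RPM in the higher group included X-linked Rhox homeobox genes, germline genes and a matrix gene. Col3a1, a fibrillar collagen gene, stood at 25.7 and 38.7 RPM at day 3 and at 0.293 and 0 RPM at day 0 (log2 fold change 4.84 ± 0.46, SE, limma adjusted p = 1.28e-07). Tcl1, a co-activator of the kinase AKT that is known from embryonic stem cells and oocytes, stood at 149 and 181 RPM at day 3 and at 19.7 and 31.5 RPM at day 0 (2.67 ± 0.20, adjusted p = 4.35e-09). Both day 3 values of these genes lay far above both day 0 values, as the choice of the largest rises without overlap requires. Lgals9, which encodes the sugar-binding protein galectin 9, stood at 155 and 172 RPM at day 3 and at 42.5 and 32.3 RPM at day 0 (2.11 ± 0.19, adjusted p = 5.6e-08). Rpl39l and Rpl10l, autosomal relatives of X-linked ribosomal protein genes, averaged 65.6 ± 33.3 and 42.9 ± 9.59 RPM at day 3 and 1.82 ± 0.50 and 8.01 ± 5.68 RPM at day 0 (SD, n = 2 each). Both have near-identical copies elsewhere in the genome, so their reads could be divided between genes in counting. Ifi27l1, of an interferon-inducible family, averaged 36.7 ± 8.59 RPM at day 3 and 4.27 ± 1.43 RPM at day 0 (SD, n = 2 each), and it also has close relatives. Khdc1a, a KH-domain gene with close relatives beside it, Actr3b, a relative of an actin nucleator, and H2-Bl, a class I histocompatibility-like gene, completed the strongest rises with log2 fold changes of 3.03, 2.69 and 2.40.

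**Figure D2:**
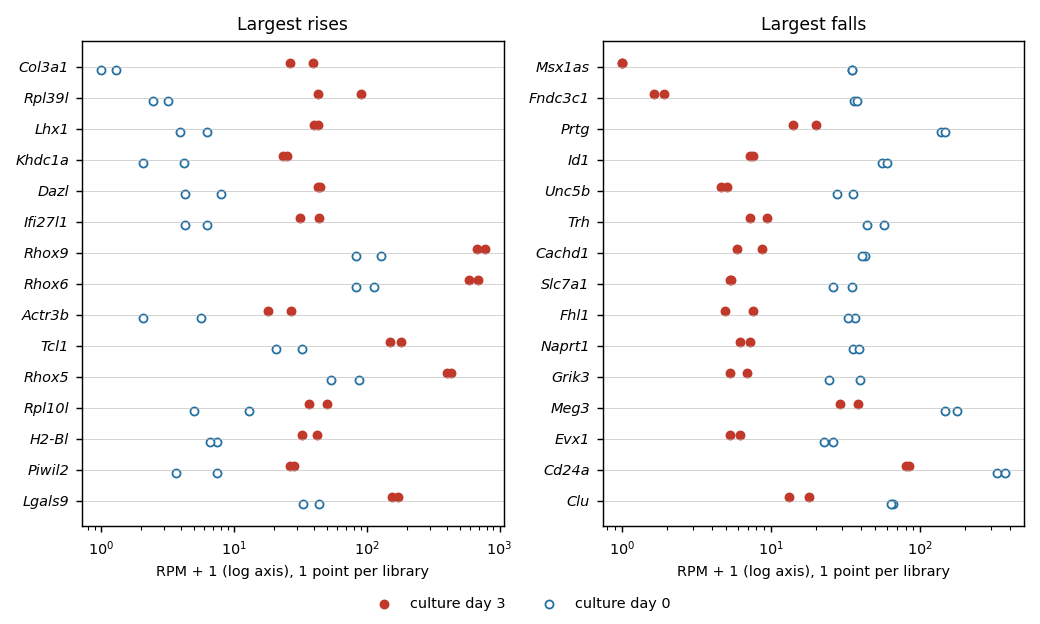
Level in each library, as RPM + 1 on a log axis, of the 15 genes with the largest rises (left panel) and the 15 with the largest falls (right panel) under the naming rule; filled red points are the 2 culture day 3 libraries and open blue points the 2 culture day 0 libraries. The naming rule took only genes whose libraries do not overlap between the 2 days; Rhox9 reached 675 and 770.4 RPM at day 3, and Msx1as was listed at 0 in both day 3 libraries.

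The Rhox cluster, a group of homeobox genes on the X chromosome that is expressed in placenta and germ cells, was examined after its members had appeared among the strongest rises. Rhox9 stood at 770.4 and 675 RPM at day 3 and at 127 and 82.4 RPM at day 0 (log2 fold change 2.80 ± 0.23, SE, limma adjusted p = 2.18e-08). Rhox6 stood at 688 and 590.2 RPM at day 3 and at 112 and 82.4 RPM at day 0 (2.72 ± 0.17, adjusted p = 1.38e-10). Rhox5 stood at 428 and 403 RPM at day 3 and at 85.9 and 53.3 RPM at day 0 (2.60 ± 0.29, adjusted p = 1.36e-06). These 3 were the abundant members, and each was several times higher in both day 3 libraries. There were 31 Rhox genes, of which 22 were tested, 18 were called higher and 0 lower, while 8 were listed at 0 in all 4 libraries. The other 15 called members ranged from 1.64 to 13.4 RPM at day 3 and did not exceed 4.90 RPM at day 0. Many are near-identical copies of one another, so the values of the minor members are uncertain and are not independent. Among the minor members, Rhox2c, at 1.94 and 1.76 RPM at day 3 and listed at 0 at day 0, kept its call in none of the 4 fits that left out a library (adjusted p 0.057 to 0.079), and Rhox4a lost it without day 0 replicate 1 (1.19) and without day 3 replicate 1 (1.35). Rhox4b and Rhox4f lost theirs without day 0 replicate 2 (1.399 and 1.37) and without day 3 replicate 1 (1.54 and 1.34), and Rhox2b, also listed at 0 at day 0, kept its call only without day 3 replicate 1 (adjusted p = 0.046, against 0.0549 to 0.0711 in the other 3 fits). Of the 469 tested X-linked genes, 34 were called higher (7.25%) and 28 lower (5.97%), beside 2.88% and 2.28% of the 11045 autosomal genes. Without the Rhox genes, 16 of 447 X-linked genes were called higher (3.58%). The median log2 fold change was -0.01 on the X chromosome and -0.002 on the autosomes. Xist, the RNA that silences an X chromosome in females, fell to 0.987 and 0.737 RPM at day 3, against 12.6 and 12.0 RPM at day 0 (-2.84 ± 0.39, adjusted p = 3.25e-05), and the day 3 values lay at or under the 3-read limit.

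Many genes of genome defence and the piRNA pathway were higher at day 3. Of 23 tested members of that list 11 were called higher and 0 lower, and their median log2 fold change was 1.07, beside 3.03% called higher and a median of -0.004 over all genes. Piwil2, a PIWI protein that binds piRNAs, stood at 27.3 and 25.4 RPM at day 3 and at 2.64 and 6.52 RPM at day 0 (log2 fold change 2.39 ± 0.30, SE, limma adjusted p = 7.86e-06). Dazl, an RNA-binding protein that licenses germ cells for sexual differentiation, averaged 42.8 ± 1.47 RPM at day 3 and 5.15 ± 2.67 RPM at day 0 (SD, n = 2 each). Ddx4, the VASA helicase of the germline, stood at 45.1 and 29.5 RPM at day 3 and at 12.3 and 6.89 RPM at day 0 (1.87 ± 0.22, adjusted p = 4.53e-06). These genes were therefore readable at day 0 and several times higher at day 3. Asz1, a mitochondrial-surface piRNA factor, was listed at 0 in both day 0 libraries and reached 6.25 and 8.11 RPM at day 3 (adjusted p = 7.73e-07). Mov10l1, the helicase that feeds piRNA precursors into processing, stood at 8.22 and 8.84 RPM at day 3 and at 1.17 and 0 RPM at day 0 (adjusted p = 1.95e-06). Fkbp6, a co-chaperone of piRNA loading, and Slc25a31, a germ cell ADP/ATP carrier, averaged 12.0 ± 3.95 and 11.8 ± 0.04 RPM at day 3 and 0.880 ± 1.24 and 1.28 ± 0.27 RPM at day 0 (SD, n = 2 each). Tex19.1, Mael, Tdrd12 and Tex15 were called as well, at log2 fold changes of 2.24, 2.02, 1.37 and 1.35. Mael encodes the nuclear piRNA factor Maelstrom. All 11 calls were kept in each of the 4 fits that left out a library. Of the 12 tested members not called, the tudor-domain gene Tdrd5 stood at 41.8 and 30.2 RPM at day 3 and at 43.1 and 37.0 RPM at day 0, and Dmrt1, a sex-determination factor, stood at 29.9 and 19.5 RPM at day 3 and at 17.9 and 10.9 RPM at day 0 (0.75 ± 0.21, adjusted p = 0.0245).

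Meiotic prophase genes rose in part. Of 36 tested members 8 were called higher and 1 lower (over all genes 3.03% and 2.43%), with a median log2 fold change of 0.33. Cohesin and chromosome-axis genes were among those called higher. Smc1b, a cohesin subunit used in meiosis, stood at 38.8 and 33.9 RPM at day 3 and at 7.04 and 9.06 RPM at day 0 (2.05 ± 0.21, limma adjusted p = 3e-07). Stag3, the partner cohesin subunit, stood at 32.9 and 38.7 RPM at day 3 and at 14.7 and 8.70 RPM at day 0 (1.57 ± 0.25, adjusted p = 0.000169). Hormad1, which marks unsynapsed chromosome axes, stood at 11.02 and 10.7 RPM at day 3 and at 2.35 and 1.09 RPM at day 0 (2.16 ± 0.23, adjusted p = 6e-07). Both values at day 3 lay above both at day 0 in each of these genes, as in every gene called higher. Hormad2 and Rec114, listed under its older name 2410076I21Rik, rose by 1.59 and 1.99 on the log2 scale. Syce1, of the synaptonemal complex, rose by 2.01, or by 1.67 without day 0 replicate 2, where the call was lost. Sycp3 and Dmc1 were called at 1.57 and 1.04. The call of Sycp3 was lost without day 0 replicate 2 (0.77), and that of Dmc1 was lost in all 4 fits that left out a library (0.93 to 1.15). Rec8, a meiotic cohesin subunit, was called lower with 12.2 and 10.3 RPM at day 3 and 18.2 and 30.4 RPM at day 0 (-1.01 ± 0.24, adjusted p = 0.00853), a call lost without day 0 replicate 2 (-0.65) and without day 3 replicate 2 (-0.90). Stra8, the gatekeeper of meiotic entry, was at 0 and 0.737 RPM at day 3 and 0.293 and 0 RPM at day 0, below the 3-read limit in all 4 libraries.

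Promoter windows of the called germline and meiotic genes are shown because a letter pattern known as the binding site of a germline gene repressor recurs in them. The windows are RefSeq's for build GRCm38.p6 and run from 250 bases before to 50 bases after a start site. The 19 called genes of both lists had windows for 17 genes, 20 windows in all. The E-box CACGTG, which is bound by MAX partners including those of the Polycomb complex PRC1.6, was in 11 of the 20 windows (55.0%), which belong to 9 genes. It was in 7 of the 40 windows (17.5%) of tested members that were not called, in 10.4% of the windows of all genes tested and in 7.15% of all 32851 windows. Over all genes called higher at day 3 it was in 12.1% of windows. The E2F-like sequence TTCCCGCC, searched on both strands, was in 4 of the 20 windows (20.0%), beside 15.0% for the members not called, 4.28% for all genes tested and 2.19% of all windows. The cyclic AMP response element TGACGTCA was in 0 of the 20, beside 2.5% for the members not called, 3.21% for all genes tested and 1.79% of all windows. CACGTG and TGACGTCA read the same on both strands, and none of the 3 patterns can lie inside another. A match describes the letters and is not a site. The windows of 5 called genes that hold CACGTG follow, 5′ to 3′ on the strand of the gene in lower case, with each CACGTG in capitals. They lie at chr3:40708621-40708920 (plus strand) for Slc25a31, chr15:88982744-88983043 (plus) for Mov10l1, chr5:135349995-135350294 (minus) for Fkbp6, chr3:95559427-95559726 (plus) for Hormad1 and chr5:138280259-138280558 (plus) for Stag3. Fkbp6 and Hormad1 each have a second, overlapping window, which is not shown.
Slc25a31: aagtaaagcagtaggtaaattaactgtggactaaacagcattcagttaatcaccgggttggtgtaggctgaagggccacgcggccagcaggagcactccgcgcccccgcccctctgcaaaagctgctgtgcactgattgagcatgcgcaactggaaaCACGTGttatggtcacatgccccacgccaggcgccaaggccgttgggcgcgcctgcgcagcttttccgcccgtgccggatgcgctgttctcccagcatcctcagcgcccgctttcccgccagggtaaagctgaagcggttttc
Mov10l1: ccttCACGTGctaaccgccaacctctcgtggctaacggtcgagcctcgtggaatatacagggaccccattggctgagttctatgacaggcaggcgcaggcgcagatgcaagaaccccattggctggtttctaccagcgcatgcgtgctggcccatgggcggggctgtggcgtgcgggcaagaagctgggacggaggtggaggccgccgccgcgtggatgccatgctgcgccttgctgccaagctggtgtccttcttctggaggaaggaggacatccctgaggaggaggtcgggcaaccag
Fkbp6: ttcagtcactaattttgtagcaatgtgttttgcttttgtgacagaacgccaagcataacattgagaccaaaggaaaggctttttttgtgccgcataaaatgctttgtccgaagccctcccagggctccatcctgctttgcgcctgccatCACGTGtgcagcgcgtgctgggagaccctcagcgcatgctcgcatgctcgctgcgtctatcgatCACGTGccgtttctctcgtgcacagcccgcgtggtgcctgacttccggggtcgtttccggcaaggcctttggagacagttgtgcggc
Hormad1: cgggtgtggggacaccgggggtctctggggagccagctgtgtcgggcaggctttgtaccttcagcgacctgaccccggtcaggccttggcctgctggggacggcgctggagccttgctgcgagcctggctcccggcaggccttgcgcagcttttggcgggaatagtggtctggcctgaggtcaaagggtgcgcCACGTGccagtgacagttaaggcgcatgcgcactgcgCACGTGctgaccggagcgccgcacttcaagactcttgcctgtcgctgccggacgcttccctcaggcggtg
Stag3: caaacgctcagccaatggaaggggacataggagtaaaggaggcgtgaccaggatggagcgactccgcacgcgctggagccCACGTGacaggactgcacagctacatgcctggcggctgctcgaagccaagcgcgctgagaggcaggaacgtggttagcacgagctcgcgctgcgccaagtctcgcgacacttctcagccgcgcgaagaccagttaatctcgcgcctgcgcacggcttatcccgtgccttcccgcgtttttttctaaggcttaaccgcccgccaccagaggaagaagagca

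The capitals stand 93 bases before the start site in Slc25a31, 246 in Mov10l1, 101 and 37 in Fkbp6, 57 and 20 in Hormad1 and 170 in Stag3, counted to the first letter of the pattern. The 11 tested genes of the PRC1.6 list, the complex that binds such letters and holds germline genes silent, gave 0 calls higher and 0 lower in the limma fit (2 at an unadjusted p below 0.05), with a median log2 fold change of -0.16. In the DNA methylation list 1 of 15 tested genes was called higher and 2 lower (over all genes 3.03% and 2.43%). Dnmt1, the maintenance methyltransferase, stood at 210.2 and 181 RPM at day 3 and at 162 and 164 RPM at day 0 (0.26 ± 0.16, limma adjusted p = 0.411). Uhrf1, which brings DNMT1 to replicating DNA, was low in both groups, at 5.26 and 5.90 RPM at day 3 and 12.3 and 11.6 RPM at day 0 (-0.98 ± 0.43, adjusted p = 0.192). Dnmt3a, a de novo methyltransferase, was called at 32.6 and 24.7 RPM at day 3 and 13.49 and 13.4 RPM at day 0 (1.02 ± 0.31, adjusted p = 0.0419), a call lost in all 4 fits that left out a library (0.83 to 1.22). Gadd45g, a stress gene linked to demethylation, fell to 0.987 and 0.368 RPM at day 3, against 8.51 and 9.79 RPM at day 0 (adjusted p = 0.000402). Gadd45a was called lower at -1.117, and at -0.88 without day 0 replicate 1 and -0.83 without day 3 replicate 2, where it lost the call.

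**Figure D3:**
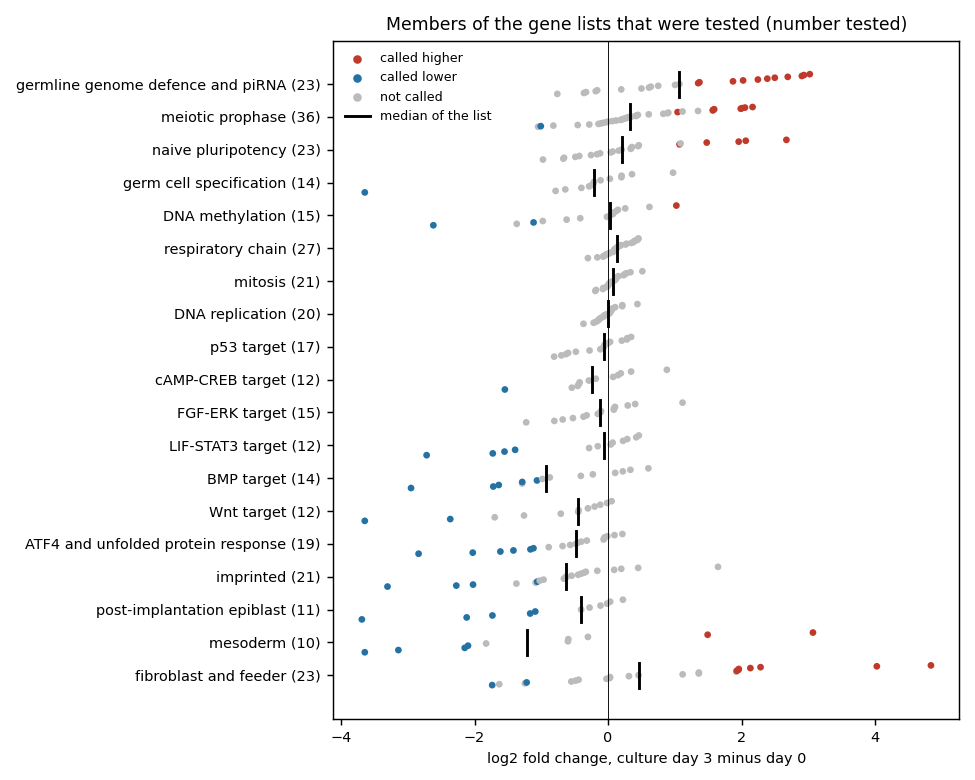
Log2 fold change, culture day 3 minus day 0, of each tested member of 19 gene lists; each point is a gene, red if called higher at day 3, blue if called lower and grey if not called, and the black bar is the list's median. The germline genome defence and piRNA list has its median at 1.07 and the BMP target list at -0.93, while the DNA replication and mitosis lists lie close to 0.

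Of 14 tested germ cell specification genes 0 were called higher and 1 lower, the mesoderm factor T. The median log2 fold change was -0.21, and over all genes 3.03% were called higher and 2.43% lower. Of all 16 members, 11 were lower in both day 3 libraries than in both day 0 libraries and 4 were higher in both, beside 24.6% and 23.5% of all tested genes. The reporter gene Prdm1, the repressor that specifies germ cells, stood at 124 and 98.7 RPM at day 3 and at 128 and 128 RPM at day 0 (-0.21 ± 0.18, limma adjusted p = 0.589). The other reporter gene, Dppa3, known as Stella, stood at 1212 and 1251 RPM at day 3 and at 614 and 639 RPM at day 0 (0.97 ± 0.13, adjusted p = 3.52e-05), just under the size limit for a call, which it passed after centring on the median and without day 0 replicate 2. Day 3 cells had been sorted on the Dppa3 reporter and day 0 cells on that of Prdm1. Kit, the SCF receptor, stood at 274 and 219 RPM at day 3 and at 275 and 324 RPM at day 0 (-0.28 ± 0.17, adjusted p = 0.38). Tfap2c, a partner of Prdm1, stood at 152 and 163 RPM at day 3 and at 229 and 265 RPM at day 0 (-0.64 ± 0.18, adjusted p = 0.0237), a fall smaller than the size limit. Prdm14, Nanos3, Dnd1, Sall4, Ifitm1, Ifitm3, Alpl and Elf3 had log2 fold changes of 0.36, -0.22, 0.20, -0.24, 0.20, 0.03, -0.40 and -0.11, none past the adjusted p threshold. Lin28a was low at 6.25 and 6.26 RPM at day 3 and 12.6 and 10.51 RPM at day 0. Cxcr4 and Sprr2a3 did not reach the level needed for a test.

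The median log2 fold change of the naive pluripotency list was 0.20. Of its 23 tested genes 5 were called higher and 0 lower (over all genes 3.03% and 2.43%). The core factors Pou5f1, Sox2 and Nanog were not among them. Dppa4, a chromatin protein of early embryos and germ cells, stood at 268 and 262 RPM at day 3 and at 68.6 and 57.3 RPM at day 0 (2.06 ± 0.19, limma adjusted p = 6.45e-08), and its partner Dppa2 at 53.3 and 49.7 RPM at day 3 and at 19.9 and 15.9 RPM at day 0 (1.48 ± 0.18, adjusted p = 6.63e-06). Fbxo15, an F-box gene of undifferentiated cells, stood at 233 and 190.1 RPM at day 3 and at 49.3 and 58.0 RPM at day 0 (1.96 ± 0.30, adjusted p = 0.000103). Zfp42, also known as Rex1, was called at 1.07 ± 0.21 (adjusted p = 0.00142), with 0.89 without day 0 replicate 2 and 0.85 without day 3 replicate 1, where it lost the call. Pou5f1, Sox2 and Nanog had log2 fold changes of -0.43, -0.49 and -0.17 and adjusted p of 0.154, 0.16 and 0.755. Dppa5a, an abundant RNA-binding protein gene, differed widely between libraries, at 2798 and 2562 RPM at day 3 and 1606 and 990.1 RPM at day 0 (1.09 ± 0.40, adjusted p = 0.101).

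Several transcripts of the postimplantation epiblast and of early mesoderm were lower at day 3. In the epiblast list 5 of 11 tested genes were called lower and 0 higher, with a median log2 fold change of -0.40, beside 2.43% called lower over all genes. Lefty1, a secreted inhibitor of NODAL, fell to 113 and 96.3 RPM at day 3, against 360.2 and 338 RPM at day 0 (-1.73 ± 0.18, limma adjusted p = 6e-07), and Lefty2 fell to 108 and 117 RPM, against 260.4 and 247 RPM (-1.17 ± 0.20, adjusted p = 0.000453). Sox3, an early neural and epiblast factor, was listed at 0 in both day 3 libraries and stood at 10.9 and 13.0 RPM at day 0 (adjusted p = 8.43e-07). Cdh2, or N-cadherin, fell to 2.96 and 2.95 RPM at day 3, against 17.6 and 14.9 RPM at day 0 (adjusted p = 0.00317). Cldn6, a tight junction gene, was called at -1.09, a call lost without either day 0 library (-1.08 and -1.10) and without day 3 replicate 2 (-0.90). In the mesoderm list 4 of 10 tested genes were called lower and 2 higher (over all genes 2.43% and 3.03%), with a median of -1.21. T and Hand1, transcription factors of the streak and lateral mesoderm, were listed at 0 in both day 3 libraries, and stood at 11.4 and 11.6 RPM and at 7.04 and 8.70 RPM at day 0 (adjusted p = 1.36e-06 and 2.64e-05). Evx1, of the primitive streak, stood at 4.28 and 5.16 RPM at day 3 and at 25.2 and 21.7 RPM at day 0 (-2.10 ± 0.48, adjusted p = 0.0063), and lost its call without day 0 replicate 1 (-1.997) and without day 3 replicate 1 (-1.99). Wnt5a was called at -2.15 and lost the call without day 0 replicate 2 (-2.11) and day 3 replicate 2 (-2.06). Lhx1 and Tbx4, whose names stand on the same list, went the other way: Lhx1 averaged 40.6 ± 2.03 RPM at day 3 and 4.09 ± 1.68 RPM at day 0, and Tbx4 averaged 21.4 ± 0.50 RPM at day 3 and 7.17 ± 2.67 RPM at day 0 (SD, n = 2 each). Lhx1 is known in head mesoderm and kidney and Tbx4 in the hindlimb and allantois. The call of Tbx4 was lost without day 0 replicate 1 (1.15). Pax6, a neural and eye factor, rose to 23.4 and 15.1 RPM at day 3, against 0.880 and 1.09 RPM at day 0 (3.32 ± 0.32, adjusted p = 1.28e-07), while Sox1 was listed at 0 in all 4 libraries.

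Of 14 tested BMP targets 5 were called lower and 0 higher (over all genes 2.43% and 3.03%), with a median log2 fold change of -0.93. Of these calls only those of Id1 and Id2 were kept in all 4 fits that left out a library. Id1, an inhibitor of basic helix-loop-helix factors, averaged 6.44 ± 0.27 RPM at day 3 and 56.6 ± 2.94 RPM at day 0 (SD, n = 2 each), and Id2 averaged 6.64 ± 1.02 RPM at day 3 and 24.5 ± 6.44 RPM at day 0. Id3, from the same family, stayed high at 319 and 297 RPM at day 3 and 352 and 371 RPM at day 0 (-0.23 ± 0.20, limma adjusted p = 0.596). Bambi, a decoy receptor induced by BMP, was called at -1.29, Msx2, a homeobox target, at -1.07 and Id4 at -1.64. Each of these 3 calls depended on single libraries: Bambi lost it without day 0 replicate 1 (-1.23) and day 3 replicate 2 (-1.10), Msx2 without day 0 replicate 2 (-0.80) and day 3 replicate 2 (-0.90), and Id4 without either day 0 library (-1.58 and -1.69) and without day 3 replicate 2 (-1.07). Smad7, an inhibitor of the pathway, stood at 46.7 and 29.5 RPM at day 3 and at 52.5 and 90.2 RPM at day 0 (-0.87 ± 0.27, adjusted p = 0.0464). Smad6, Gata2, Hey1, Atoh8, Smad9, Gata3 and Tbx2 had log2 fold changes of 0.11, 0.33, 0.22, 0.60, -0.41, -0.99 and -1.29, with adjusted p of 0.0617 or more. Msx1, Bmper, Nog and Dlx5 were not tested. Msx1as, an RNA antisense to Msx1, was listed at 0 in both day 3 libraries and stood at 34.0 and 33.7 RPM at day 0 (adjusted p = 6.86e-09), while Msx1 stood at 0 and 0 RPM at day 3 and 1.76 and 3.99 RPM at day 0; whether strand was used in counting is not given in the sources used here, so the 2 transcripts could share reads.

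Among the targets of other signals, LIF-STAT3 targets divided. Of 12 tested 4 were called lower and 0 higher (over all genes 2.43% and 3.03%), with a median of -0.06. Gbx2, a homeobox gene induced by LIF, fell to 1.32 and 2.95 RPM at day 3, against 17.3 and 20.7 RPM at day 0 (-2.72 ± 0.42, limma adjusted p = 0.000154). Stat3, which encodes the transducer itself, fell to 22.7 and 24.7 RPM, against 60.7 and 67.0 RPM (-1.39 ± 0.21, adjusted p = 0.000105). Junb and Bcl3 fell by 1.73 and 1.55 on the log2 scale, while Klf5, Tfcp2l1, Pim1 and Pim3 had log2 fold changes of 0.04, 0.07, 0.29 and 0.22. For cyclic AMP, whose level both drugs in the day 3 medium raise, 1 of 12 tested CREB targets was called, and it was lower: Fos at 1.64 and 3.68 RPM at day 3 and 6.16 and 13.8 RPM at day 0 (-1.55 ± 0.40, adjusted p = 0.0163), a call lost without day 0 replicate 2 (-1.02) and without day 3 replicate 1 (-1.13). The classical targets Nr4a1, Crem, Sik1 and Per1 had log2 fold changes of -0.43, -0.18, 0.34 and -0.54, none past the threshold. In the FGF-ERK list 0 of 15 tested genes were called in either direction by limma (3 at an unadjusted p below 0.05), with a median of -0.12, and Spred1 alone passed the adjusted p threshold (-0.81 ± 0.23, adjusted p = 0.0299). Of 12 tested Wnt targets 2 were called lower, T and Sp8, and 0 higher, with a median of -0.44. The log2 fold change was negative in 11 of the 12, beside 6040 of the 11873 genes tested. Sp8, a zinc finger factor, lost its call without day 3 replicate 2 (-1.76).

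Serine and one-carbon enzymes moved within the ATF4 and unfolded protein response list. Of its 19 tested genes 6 were called lower and 0 higher (over all genes 2.43% and 3.03%), with a median of -0.48. Phgdh, the first enzyme of serine synthesis, fell to 32.6 and 32.1 RPM at day 3, against 127 and 143 RPM at day 0 (-2.03 ± 0.24, limma adjusted p = 4.6e-06). Shmt2 and Mthfd2, which carry serine-derived carbon in mitochondria, fell by 1.16 and 1.118 on the log2 scale, and Psat1, the second enzyme of serine synthesis, stood at 194 and 190.1 RPM at day 3 and at 343 and 371 RPM at day 0 (-0.89 ± 0.13, adjusted p = 8.69e-05), under the size limit. Chac1, which degrades glutathione, fell to 0.658 and 1.105 RPM at day 3, against 13.2 and 11.6 RPM at day 0 (adjusted p = 0.000519). The 4 genes Phgdh, Psat1, Shmt2 and Mthfd2 were lower in both day 3 libraries than in both day 0 libraries. That held for every gene called lower and for 24.6% of all tested genes. Without day 0 replicate 2 Shmt2 was at -0.92, and without day 3 replicate 2 Mthfd2 was at -0.95, both under the size limit. Cth and Herpud1 were called at -1.61 and -1.42: Cth lost its call without day 0 replicate 1 (-1.32) and day 3 replicate 2 (-1.33), and Herpud1 lost it in all 4 such fits (-1.18 to -1.66). The stress factors Atf4, Ddit3 and Trib3 and the chaperone gene Hspa5 had log2 fold changes of -0.57, -0.48, -0.40 and -0.05, none past the threshold. Amino acid carriers of the plasma membrane were looked at after the values were seen: Slc7a1, for cationic amino acids, fell to 4.28 and 4.42 RPM at day 3, against 24.9 and 34.1 RPM at day 0 (-2.50 ± 0.40, adjusted p = 0.000204), and Slc1a4, for neutral amino acids including serine, to 8.55 and 5.16 RPM, against 23.5 and 37.3 RPM (-1.997 ± 0.33, adjusted p = 0.00026). Slc7a5, another carrier, stood at 28.9 and 57.1 RPM at day 3 and at 35.2 and 64.1 RPM at day 0 (limma adjusted p = 0.796). Slc7a11 and Slc3a2, carrier genes on the list itself, were not called, at log2 fold changes of -0.06 and -0.32. Further carriers of these families are not given here, so these genes do not stand for the families.

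Energy and division lists gave few calls outside glycolysis. In the glycolysis list 1 of 20 tested genes was called higher and 2 lower (over all genes 3.03% and 2.43%), with a median log2 fold change of -0.09. In glycolysis Ldha, the lactate dehydrogenase subunit that favours lactate formation, fell to 77.9 and 56.4 RPM at day 3, against 207 and 187 RPM at day 0 (-1.56 ± 0.28, limma adjusted p = 0.000683). Its counterpart Ldhb was called higher at 56.2 and 69.8 RPM at day 3 and 33.0 and 24.6 RPM at day 0 (1.109 ± 0.19, adjusted p = 0.000453), and the glucose transporter Slc2a3 lower at -1.03. Leaving out day 0 replicate 2 put Ldhb at 0.91 and Slc2a3 at -0.80, and leaving out day 3 replicate 2 put Ldhb at 0.96 and day 3 replicate 1 put Slc2a3 at -0.78, all under the size limit. The other 17 of the 20 tested glycolysis genes were not called. None of the 27 respiratory chain genes was called, at a median of 0.13, nor any of 20 replication genes, 21 mitosis genes, 17 p53 targets or 20 cholesterol synthesis genes tested (limma, adjusted p below 0.05 and the size limit), with medians of -0.01, 0.07, -0.07 and -0.18. At an unadjusted p below 0.05 there were 3 respiratory, 1 replication, 1 mitosis, 3 p53 and 4 cholesterol genes. Among 17 tested cyclins and inhibitors of the G1 phase 0 were called higher and 1 lower (over all genes 3.03% and 2.43%). The gene called was Ccnd2, cyclin D2, which fell to 1.97 and 2.58 RPM at day 3, against 13.8 and 22.1 RPM at day 0 (-2.50 ± 0.45, limma adjusted p = 0.000772).

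Further genes among the largest falls had varied roles. Prtg, or protogenin, an adhesion receptor of the early embryo, averaged 16.2 ± 4.24 RPM at day 3 and 141 ± 6.63 RPM at day 0 (SD, n = 2 each). Fndc3c1, an X-linked fibronectin-domain gene, stood at 0.658 and 0.921 RPM at day 3, under the 3-read limit, and at 34.9 and 36.6 RPM at day 0 (limma adjusted p = 5.85e-06). Unc5b, a netrin receptor, fell to 3.62 and 4.05 RPM at day 3, against 26.7 and 34.4 RPM at day 0 (-2.70 ± 0.34, adjusted p = 8.35e-06). The separation of the 2 days was wide in each of them, as the choice of the largest falls without overlap requires. Cd24a, a surface glycoprotein used to sort progenitors, fell to 79.6 and 82.5 RPM at day 3, against 328 and 370.4 RPM at day 0 (-2.09 ± 0.18, adjusted p = 3.03e-08). Trh, the precursor of thyrotropin-releasing hormone, Grik3, a kainate receptor subunit, Fhl1, a LIM protein, Naprt1, an enzyme of NAD synthesis, and Cachd1, a calcium channel-like protein, fell by 2.59, 2.37, 2.50, 2.47 and 2.52 on the log2 scale. Clu, which encodes the chaperone clusterin, was called at -2.07 and lost the call without either day 0 library (-2.05 and -2.08) and without day 3 replicate 2 (-1.84). Krt8, a keratin of simple epithelia, fell to 1.64 and 2.21 RPM at day 3, against 15.54 and 20.5 RPM at day 0 (-2.69 ± 0.40, adjusted p = 7.97e-05). In the adhesion and migration list 2 of 18 tested genes were called higher and 2 lower (over all genes 3.03% and 2.43%). The list's median log2 fold change was -0.34. Pecam1, a cell-surface molecule of germ cells and endothelium, was called higher at 99.3 and 128 RPM at day 3 and 49.0 and 47.8 RPM at day 0 (1.20 ± 0.21, adjusted p = 0.000665). Itgav, an integrin subunit, was called higher at 1.19 and lost the call without day 0 replicate 1 (1.23), day 0 replicate 2 (1.15) or day 3 replicate 2 (1.06). Igfbp3, which binds insulin-like growth factors, fell to 10.52 and 14.4 RPM at day 3, against 34.0 and 38.1 RPM at day 0 (-1.47 ± 0.23, adjusted p = 0.00014), and Cdh2, given above, was the other gene called lower.

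Imprinted genes, which are read from 1 parental copy, gave calls in 1 direction. Of 21 tested 4 were called lower and 0 higher (over all genes 2.43% and 3.03%), with a median of -0.63. Meg3, a maternally expressed long RNA, fell to 37.3 and 28.0 RPM at day 3, against 146 and 176 RPM at day 0 (-2.27 ± 0.38, limma adjusted p = 0.000349). Impact fell to 79.3 and 81.8 RPM, against 191 and 150.04 RPM (-1.06 ± 0.16, adjusted p = 9.23e-05), and was at -0.89 without day 0 replicate 1. Snrpn stood at 0.00324 and 0.0115 RPM at day 3, below 1 read, and at 9.29 and 8.64 RPM at day 0; it lost its call in all 4 fits that left out a library (adjusted p 0.138 to 0.156), and its reads overlap those of neighbouring transcripts. Sgce was called at -2.02 and lost the call without either day 0 library (-1.81 and -2.23) and without day 3 replicate 2 (-1.42). H19 stood at 100.3 and 139.6 RPM at day 3 and at 133 and 92.6 RPM at day 0, and Igf2 at 6.91 and 5.90 RPM and at 12.9 and 15.2 RPM, neither past the threshold. In the histocompatibility and interferon list 2 of 15 tested genes were called higher and 2 lower (over all genes 3.03% and 2.43%), with a median of -0.31. Those higher were Ifi27l1, given above, and Bst2 (1.02), which lost its call in all 4 fits that left out a library (0.94 to 1.10). H2-K1 fell by 1.34 on the log2 scale. Psmb8, a subunit of the immunoproteasome, was listed at 0 in both day 3 libraries and stood at 15.8 and 12.3 RPM at day 0 (limma adjusted p = 0.000161). B2m, Tap1 and Tapbp, also of class I antigen presentation, were not called (-0.43, -0.14 and -0.41). H2-K1 and H2-Bl belong to a family of close copies.

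Some fibroblast and feeder genes were higher at day 3. Of 23 tested members 7 were called higher and 2 lower (over all genes 3.03% and 2.43%), with a median log2 fold change of 0.46. Dcn, the matrix proteoglycan decorin, stood at 15.1 and 15.47 RPM at day 3 and was listed at 0 in both day 0 libraries (limma adjusted p = 1.32e-06), and Col3a1 was given above. S100a4, Cd44, Vcam1, Ccl2 and Col5a2 were called at low levels, between 1.64 and 9.95 RPM at day 3. Col3a1 and Dcn kept their calls in all 4 fits that left out a library. S100a4 lost its call without day 0 replicate 1 (2.22), day 0 replicate 2 (2.34) or day 3 replicate 2 (1.84), and Cd44, listed at 0 at day 0, without the same libraries (adjusted p = 0.0987, 0.117 and 0.303). Col5a2 lost it without day 0 replicate 1 (1.397) or day 3 replicate 2 (1.45), and Vcam1 without day 0 replicate 2 (1.77) or day 3 replicate 1 (1.80). Ccl2, listed at 0 at day 0, lost it without either day 0 library (adjusted p = 0.0687 and 0.0825) or day 3 replicate 1 (adjusted p = 0.183). Timp1 and Acta2 were called lower at -1.22 and -1.74; Timp1 lost its call in all 4 fits (-1.08 to -1.36), and Acta2 without day 0 replicate 1 (-1.24), day 3 replicate 1 (-2.01) or day 3 replicate 2 (-1.47). The 10 markers set for these cells summed to 638 and 560 RPM at day 3 and to 634 and 556 RPM at day 0, mostly from Fn1 and Sparc, which stood at 409 and 358 RPM and at 179 and 139 RPM at day 3. At day 0 Fn1 stood at 407 and 345 RPM and Sparc at 222 and 208 RPM. Col1a1 stood at 7.89 and 4.79 RPM at day 3 and at 1.47 and 2.17 RPM at day 0, and Lum, Postn and Thy1 were listed at 0 in all 4 libraries. Feeder cells were present in the day 3 culture only, and their part in these results was not tested. In such bulk samples fewer cells of a type and less RNA per cell cannot be told apart. Marker sums were at most 0.880 RPM in any library for gonadal somatic cells and 4.05 RPM for endoderm. For blood and endothelium the 4 defining markers were listed at 0 in both day 3 libraries and summed to 2.64 and 0.725 RPM at day 0. The full list of 16 such genes summed to 11.2 and 12.0 RPM at day 3 and to 5.72 and 2.90 RPM at day 0. Tek, an angiopoietin receptor of endothelium and the only tested gene of that list, rose to 10.52 and 8.11 RPM at day 3, against 0.880 and 0.725 RPM at day 0 (2.51 ± 0.45, limma adjusted p = 0.000649). Mesoderm markers summed to 0 and 0.553 RPM at day 3 and to 8.95 and 10.1 RPM at day 0. Of these 5 markers 4 were below 3 RPM in all 4 libraries, and Hand1, given above, carried the day 0 sums. The full mesoderm list summed to 82.9 and 81.2 RPM at day 3 and to 97.2 and 91.3 RPM at day 0. Neural markers summed to 37.5 and 28.0 RPM at day 3 and to 5.28 and 2.90 RPM at day 0. Pax6 and Nes carried the neural sums. Nes was called higher (log2 fold change 1.90) and lost the call without day 0 replicate 2 (1.43) or day 3 replicate 1 (1.83). Sox11, also on the neural list, was called lower at -2.70 and lost the call without day 3 replicate 2 (-2.49).

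The later CT libraries of the same line, 2 each at days 5, 7 and 9, place the day 3 levels in the course of culture. In that fit 1094 genes were called for day 9 against day 0 (9.21%), 5.88% of tested genes higher and 3.34% lower. For day 9 against day 3, 267 were called (2.25%), 1.66% higher and 0.59% lower. Both comparisons share libraries with that of day 3 and day 0. Dazl averaged 42.8 RPM at day 3, 235 at day 5, 196 at day 7 and 235 at day 9, and day 9 against day 3 gave a log2 fold change of 2.42 (limma adjusted p = 1.43e-05). Rpl39l averaged 65.6 RPM at day 3 and 184 at day 9 (1.57, adjusted p = 0.000599). Ddx4, Tcl1, Rhox9, Id1, Prtg and Phgdh were not called for day 9 against day 3. Ddx4 averaged 59.2 RPM at day 9 (0.68 against day 3, adjusted p = 0.0878), Tcl1 158 (-0.06, adjusted p = 0.909) and Rhox9 716 (-0.02, adjusted p = 0.987). Of the genes that had fallen, Id1 averaged 4.19 RPM at day 9, Prtg 22.9 and Phgdh 37.7, with adjusted p against day 3 of 0.471, 0.223 and 0.664. Id3, not called at day 3, averaged 132 RPM at day 9 (-1.22 against day 3, adjusted p = 0.000726). Id2, Fhl1 and Stra8 were called higher at day 9 than at day 3, by 1.26, 1.63 and 2.67 (adjusted p = 0.00363, 0.0416 and 1.43e-05).

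**Figure D4:**
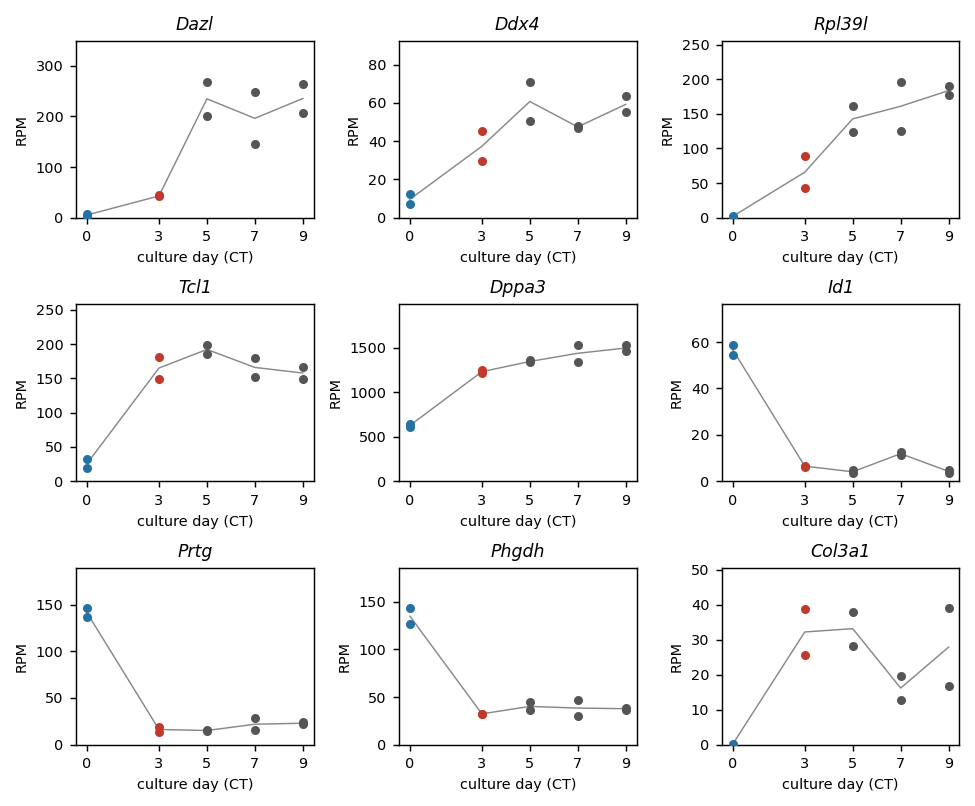
Level in RPM (vertical axis, from 0) of 9 genes in the day 0 libraries and in the CT libraries of culture days 3, 5, 7 and 9 (horizontal axis); each point is 1 library, blue for day 0, red for day 3 and grey for later days, and the line joins the means of the 2 libraries. Tcl1, Id1, Prtg and Phgdh reached by day 3 a level near that of the later days, while Dazl averaged 42.8 RPM at day 3 and 235 RPM at day 5.

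Cells of other strains gave independent libraries. In the C57BL/6 line, which also carries Gtrosa26tm1Sor/0, 1 library at culture day 2 (c0CT) and 1 at day 0 (d4c0) allow differences but no test. Of the 360 genes called higher at day 3 in the 129S1:C57BL/6 line, 225 (62.5%) were higher by at least 1 on the log2 scale in the C57BL/6 line at day 2, against 9.77% of all genes tested, and 1 was lower by at least 1. Of the 289 genes called lower, 139 (48.1%) were lower by at least 1, against 5.14% of all genes, and 8 were higher by at least 1. Dcn stood at 26.9 RPM at day 2 and was listed at 0 at day 0 there, Col3a1 at 83.0 RPM at day 2 and 0.923 RPM at day 0, and Prtg at 36.8 RPM at day 2 and 154 RPM at day 0. In wild-type cells of the DBA/2:C57BL/6 strain mix at culture day 3, with the same reporters, Dazl averaged 83.9 ± 0.82 RPM, Rhox9 923 ± 48.0 RPM, Id1 6.75 ± 2.22 RPM, Prtg 8.08 ± 2.55 RPM and T was listed at 0 (SD, n = 2). H2-Bl stood apart in that line, at 1.99 ± 2.07 RPM, and Col3a1 was at 92.1 ± 3.59 RPM. In germ cells sorted from ICR:C57BL/6 embryos that carried Dppa3-EGFPTg/0, Dazl averaged 4.98 RPM at E9.5, 24.9 at E10.5 and 247 at E11.5, Ddx4 21.98, 62.8 and 156, and Dcn 2.69 RPM at E9.5 and 0 at E11.5 (n = 2 each). These levels are set side by side with no test.

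**Figure D5:**
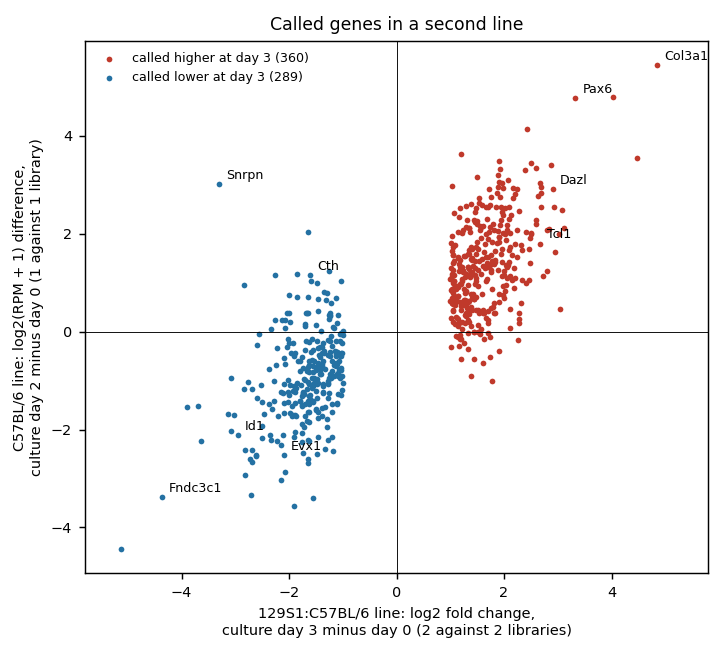
For each of the 649 called genes, the log2(RPM + 1) difference between culture day 2 and day 0 in the C57BL/6 line, 1 library each (vertical axis), against the log2 fold change of culture day 3 minus day 0 in the 129S1:C57BL/6 line, 2 libraries each (horizontal axis). Points are red for genes called higher at day 3 and blue for genes called lower; most lie at the lower left and the upper right, and Cth and Snrpn lie above 0 in the C57BL/6 line though called lower.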

How the data were processed

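Messenger RNA was measured by 3′-end RNA sequencing. Per the labels' protocols, RNA was extracted with a column kit and the cDNA amplified before library preparation. The authors deposited 1 signal value per gene and library in RPM, used as deposited; per the submitters' processing notes, build mm10 was used along with Cufflinks 2.2.0, TopHat 1.4.1, cutadapt 1.11 and Bowtie 1.0.1, whose order the notes do not give. Because only 92.1 to 92.9% of the values above 0 in the 4 libraries were whole reads (tolerance 0.05), counts were not recovered and no count test was run. Values under 0.001 RPM (2777) were set to 0. Of 26218 genes, those reaching 5 RPM in at least 2 of the 22 libraries of the 129S1:C57BL/6 line were tested on log2(RPM + 1), a scale that understates the change of low genes, with limma 3.58.1 in R 4.3.3 (lmFit, eBayes with trend, two-sided), 1 mean for each of 11 groups and 11 residual degrees of freedom; the residual SD had a median of 0.28. The method was tested on simulated data.

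The text names, in each direction, the 15 called genes that changed most (a mean of 20 RPM or more on the higher day, libraries of the 2 days not overlapping, predicted names left out); Prdm1, Dppa3 and Kit; up to 6 called members of a list; uncalled members that a count covers; and the members of the germ cell specification, BMP target and fibroblast lists. The other called genes of the germline and meiotic lists, and the Rhox genes, Xist, Msx1 and the amino acid carriers, were added after their values were seen. The members and the 33 lists were chosen with earlier results of these data known. Promoter sequences and gene positions are RefSeq's for GRCm38.p6. The 14 alternatives covered the pseudocount, filter, scaling, libraries in the fit, replicate block, trend and leaving out each library.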

Additional observations from a re-analysis of the deposited data

Results flagged for a closer look

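Of the called genes named under the naming rule, 2 differed in the opposite direction by at least 1 on the log2 scale in the C57BL/6 line. By sign alone, 23 of the 360 genes called higher were lower there and 45 of the 289 called lower were higher. Cth, a cysteine synthesis enzyme, was called lower at day 3 in the 129S1:C57BL/6 line (log2 fold change -1.61), and was higher by 1.16 on the log2 scale at day 2 than at day 0 in the C57BL/6 line, at 18.7 RPM at day 2 and 7.85 RPM at day 0. Snrpn was called lower at -3.31 in the 129S1:C57BL/6 line, and was higher by 3.01 in the C57BL/6 line, at 7.36 RPM at day 2 and 0.0353 RPM at day 0. The C57BL/6 line has 1 library a day, and the difference between the lines was not tested. Of all 649 called genes, 9 were opposite by at least 1 on the log2 scale.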

How the results depend on the processing

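All 649 calls kept their direction under the 14 alternatives in which the gene was tested, and no named gene reversed. In no called gene did the libraries of the 2 days overlap. Leaving out 1 library or changing the pseudocount therefore could not reverse a call, and the kept direction says little. With 5 added to RPM, 338 genes were called (161 higher at day 3, 177 lower), and 555 and 155 for CT day 9 against day 0 and against day 3. With the 4 libraries alone, 14 were called (5 higher, 9 lower), among them 2 list genes higher and 6 lower. That fit has 2 residual degrees of freedom, against 11 in the main fit. The cause of the smaller number of calls was not tested. Leaving out 1 library gave 358 to 466 calls (218 to 289 higher, 140 to 200 lower), and 117 to 263 for CT day 9 against day 3. Of the 100 named genes that were called, 65 kept the call in all 4 of these fits. Quantile normalization gave 522 calls, median centring 652, TMM on RPM 677, the 10 RPM filter 581, no filter 673, no trend 639 and 0.1 added to RPM 695. Replicate numbers are shared between the groups; a fit with a replicate block gave 703 calls, which included all 649. Deviations of same-numbered libraries correlated at 0.138 between day 3 and day 0, and at -0.0717 to 0.239 over the 55 pairs of groups, of which 11 exceeded 0.1, so the numbers were not taken as pairs. At 2.71 to 3.41 M reads a level under about 1 RPM was not measurable, and 230 called genes averaged under 10 RPM in the higher group.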
